A study of Mus musculus with 30 samples.

Results

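Transcripts of 10 genes of bone morphogenetic protein (BMP) and transforming growth factor-beta (TGF-beta) signalling were followed in mouse 3T3-L1 cells, a line of preadipocytes that turn into adipocytes in adipogenic medium. The genes were chosen by name. They are the type I receptors Bmpr1a and Tgfbr1, the type II receptors Bmpr2, Acvr2a and Tgfbr2, the receptor-regulated Smads Smad2, Smad3 and Smad5, the common Smad Smad4 and the inhibitory Smad Smad7. They are 10 of the 54232 genes listed in the count table, and all 10 were among the 20139 genes tested, those with more than 14 counts over all libraries. RNA was sequenced from 30 libraries in 6 groups of 5. All groups were grown in adipogenic medium holding insulin, dexamethasone, isobutylmethylxanthine and indomethacin, and control cells were given this medium alone. The other groups were given the peptide pNaKtide (0.7 µM), the uremic toxin indoxyl sulfate (IS, 100 µM), IS and pNaKtide, oxidized low density lipoprotein (oxLDL, 50 µg/mL), or oxLDL and pNaKtide, which asks how the toxin or the lipoprotein changed the cells and whether the peptide, the cell-permeant form of an inhibitor of Src signalling through the Na,K-ATPase, altered that change. The labels give 5 days of treatment and the study's methods a shorter time. All groups are 1 cell line in culture, so that no animal or donor enters the replicates, and no source used here says whether the 5 libraries of a group came from separate cultures. The p-values therefore measure the spread between libraries, which may in part be technical.

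Ligands of the TGF-beta family bring together type II receptors, which are constitutively active kinases, and type I receptors, which the type II receptors phosphorylate. Type I receptors then phosphorylate receptor-regulated Smads, which join Smad4 and enter the nucleus to act on target genes, while Smad7 is induced by the pathway and feeds back on the type I receptors. Tgfbr2 with Tgfbr1 conveys TGF-beta to Smad2 and Smad3, and Bmpr2 or Acvr2a with Bmpr1a conveys BMPs to Smad5 and its relatives. In adipocyte precursors BMPs are known to favour commitment to the adipocyte lineage, and TGF-beta acting through Smad3 is known to restrain adipocyte differentiation.

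Sequences just before the annotated starts of 4 receptor and Smad genes are printed to show the base composition of these promoters. The transcripts of the genes that moved and of those that did not differed in base composition. Acvr2a and Tgfbr1 stand for genes called higher with oxLDL, and Tgfbr2 and Smad3 for genes that were not called. The GC content of the promoter windows did not separate these classes, as described below. Each run is the 250 bases before the RefSeq start site in GRCm38.p6, read 5′ to 3′ on the strand of the gene, and capitals mark each GC box, GGGCGG or its reverse complement CCGCCC. The windows are chr2:48813859-48814108 on the plus strand for Acvr2a, chr4:47352972-47353221 on the plus strand for Tgfbr1, chr9:116175364-116175613 on the minus strand for Tgfbr2 and chr9:63757995-63758244 on the minus strand for Smad3.
Acvr2a: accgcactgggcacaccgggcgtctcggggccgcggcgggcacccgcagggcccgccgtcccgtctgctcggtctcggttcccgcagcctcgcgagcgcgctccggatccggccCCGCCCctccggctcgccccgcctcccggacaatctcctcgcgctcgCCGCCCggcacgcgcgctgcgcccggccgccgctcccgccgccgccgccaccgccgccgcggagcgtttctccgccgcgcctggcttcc
Tgfbr1: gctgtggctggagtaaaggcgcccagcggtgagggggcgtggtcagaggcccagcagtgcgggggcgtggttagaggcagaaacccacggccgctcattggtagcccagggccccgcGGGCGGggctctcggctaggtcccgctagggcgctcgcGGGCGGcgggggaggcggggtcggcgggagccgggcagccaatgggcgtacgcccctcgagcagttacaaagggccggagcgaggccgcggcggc
Tgfbr2: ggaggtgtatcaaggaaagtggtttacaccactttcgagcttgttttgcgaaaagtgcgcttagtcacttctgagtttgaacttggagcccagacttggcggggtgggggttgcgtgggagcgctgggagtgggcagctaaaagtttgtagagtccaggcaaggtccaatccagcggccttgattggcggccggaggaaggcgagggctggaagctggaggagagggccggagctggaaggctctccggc
Smad3: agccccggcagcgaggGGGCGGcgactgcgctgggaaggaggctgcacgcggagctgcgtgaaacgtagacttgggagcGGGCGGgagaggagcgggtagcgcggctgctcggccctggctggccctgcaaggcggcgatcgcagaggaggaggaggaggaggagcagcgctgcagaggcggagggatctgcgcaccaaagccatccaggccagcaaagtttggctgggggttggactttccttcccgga

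Of the 10 genes, 7 matched a RefSeq promoter window. Their GC content ran from 58.4% (Tgfbr2) to 82.0% (Acvr2a), above the median of 52.4% over all 32851 windows of the same length. The windows of Bmpr2 and Smad5, both called higher with oxLDL, were lower in GC content than that of Smad3, which was not called. A GC box stood on either strand in 6 of the 7 windows, compared with 32.7% of all windows, and the window of Tgfbr2 held none. The letters CAGAC, the core of the Smad binding element, stood on either strand in 2 of the 7 windows, compared with 42.2% of all windows. They lay 188 bases before the start of Acvr2a and 160 bases before that of Tgfbr2. The 5 other motifs searched on both strands were the cAMP response element TGACGTCA, the AP-1 site TGANTCA, the E-box CACGTG, a form of the NF-kappaB site, GGANTTCC, and the core of the antioxidant response element, TGACNNNGC. Of these only the last was found, once each in the windows of Tgfbr1 and Tgfbr2 and in 10.2% of all windows. Such a match is a description of the letters and not evidence of a bound factor.

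Between 6945498 and 15159877 counts per library fell on genes. Levels are given as CPM, the count of a gene over the library total scaled by the TMM method,, as mean ± SD over 5 libraries. Adipocyte markers summed to between 12980 and 22077 CPM per library over 11 genes, and none of the 11 was at 0 in all libraries of a group. The 6 macrophage markers summed to at most 8.47 CPM, with Ptprc and Itgam at 0 throughout, the 4 endothelial markers to at most 0.613 CPM and the 4 epithelial markers to at most 8.69 CPM. Library 1 of the control group, 4 of the IS group, 4 of the oxLDL+pNaKtide group and 3 of the pNaKtide group stood apart from the others of their groups on the first principal component of log2 CPM, which held 64.4% of the variance over 12580 genes. Control library 1 scored -25.8, among oxLDL libraries that scored from -41.9 to -14.7, and IS library 4 scored 28.2, where the other IS libraries scored between -36.7 and -23.2. The oxLDL+pNaKtide library 4, which had the fewest counts of all, scored 67.5 where the others of its group scored 14.5 to 33.2, and pNaKtide library 3 scored -5.36 where the others scored 15.9 to 36.6. Results that rest on these libraries are given with and without them. Libraries also differed in how their counts followed the GC content of the transcripts. The slope of log2 CPM over GC content ran from -0.437 to -0.137 log2 units per 10 GC points in the oxLDL libraries and from 0.109 to 0.374 in the oxLDL+pNaKtide libraries other than library 4, which was at 0.699. In the control libraries it ran from -0.212, in library 1, to 0.355.

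Measured per length, as the authors' FPKM, the receptors and Smads were transcribed at levels that spread widely in control cells. Tgfbr2 was highest at 15.4 ± 0.479 FPKM (SD, n = 5), followed by Bmpr1a at 10.1 ± 2.06 FPKM. Smad4 (8.06 ± 0.561), Smad3 (7.63 ± 0.534) and Smad2 (7.61 ± 0.786) lay within a SD of one another on the FPKM scale. Smad5 stood at 5.96 FPKM (from 4.74 to 8.50 in single libraries), Tgfbr1 at 5.23 ± 1.71 FPKM and Acvr2a at 5.19 ± 1.37 FPKM, and these did not differ beyond their spread. Bmpr2 stood at 2.42 ± 0.794 FPKM and Smad7 at 0.271 ± 0.0601 FPKM. Smad7 held only 463 counts over all libraries, and no more than 31 in any, so that its values carry the largest counting error of the genes. The length behind the FPKM of Smad2 was 3549 bp, where the annotated exons of the gene cover 8781 bp, so the place of Smad2 in this order depends on the length chosen.

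With oxLDL, transcripts of 6 of the 10 genes rose against control and none fell (edgeR's quasi-likelihood test, adjusted p of 0.1). Of all genes tested, 36.0% were called in this comparison, 18.1% as higher and 18.0% as lower. The genes that rose were Bmpr1a, Tgfbr1, Bmpr2, Acvr2a, Smad2 and Smad5, and the median log2 fold change of the 10 genes was 0.41, compared with 0.04 over all genes tested. With offsets that remove the trend of each library over GC content and length, described further on, these medians were both 0.03. Among cells given oxLDL, those also given pNaKtide had lower transcripts of 9 of the 10 genes and higher transcripts of none, and Smad3 was the exception. There 48.3% of all genes tested were called, 22.1% as higher and 26.1% as lower, and the median log2 fold change was -0.68 over the 10 genes and -0.09 over all genes, or -0.15 and -0.04 with the offsets. In 8 of these 9 genes the groups did not overlap, all but Tgfbr2, and all 8 were lower, as were 14.8% of all genes tested. In oxLDL against control the groups stood apart for Smad2 alone, which was higher, as were 4.83% of all genes. Both comparisons use the same oxLDL libraries. The 6 genes called with oxLDL were 7 without control library 1, 3 without control library 5, and between 4 and 6 without any other library, while the calls over all genes ran from 4966 to 9246 in these fits. With IS, Acvr2a alone rose against control, and 7.94% of all genes tested were called, 4.45% as higher. This count was 5 without control library 1, 5 without IS library 4 and 0 without any other library of these groups, and 7 without both of these, where Bmpr1a, Tgfbr1, Bmpr2, Smad2, Smad5 and Smad7 joined Acvr2a. The share of all genes called moved as well, to 33.4% without control library 1, 34.4% without IS library 4 and 45.8% without both. With pNaKtide alone no gene of the 10 was called, and 1 of all genes tested was (0.00497%). Without all 4 libraries that stood apart, 8 genes were called higher with oxLDL, 8 with IS and 0 with pNaKtide alone, and 8 lower with pNaKtide added to oxLDL, with Tgfbr2 lost. Of all genes, 49.8%, 47.8%, 0.524% and 46.8% were called in these fits. Scaled by library size alone, the median of all genes moved from 0.04 to 0.17 in oxLDL against control, and from -0.09 to -0.30 in oxLDL+pNaKtide against oxLDL. The calls over all genes then moved from 3637 higher and 3622 lower to 4963 and 2276 in the first, and from 4458 higher and 5264 lower to 2696 and 7680 in the second.

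**Figure D1:**
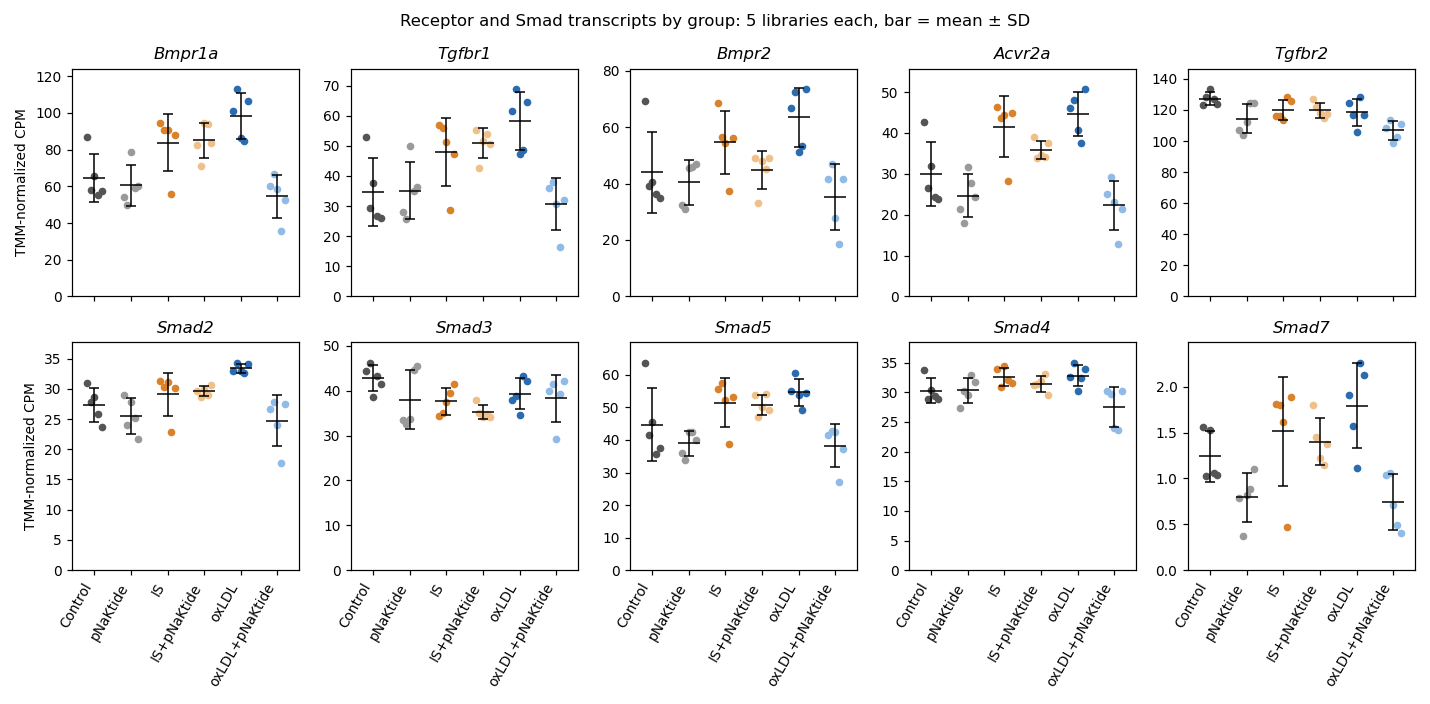
TMM-normalized CPM (y axis, from 0) of each of the 10 genes by group (x axis), with 1 point per library, 5 libraries per group, and bars for mean ± SD. Bmpr1a, Tgfbr1, Bmpr2, Acvr2a, Smad2 and Smad5 are highest in the oxLDL group, 1 control library and 1 IS library lie away from the rest of their groups, and Tgfbr2 and Smad3 vary little between groups.

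Tgfbr1, the kinase that passes the TGF-beta signal to Smad2 and Smad3, lies on chromosome 4 (ENSMUSG00000007613, 47353222 to 47414931, plus strand, GRCm38). Its level was 52.9, 29.3, 37.7, 26.8 and 26.0 CPM in control libraries 1 to 5 and 61.5, 68.8, 47.3, 48.5 and 64.6 CPM in the oxLDL libraries. All 5 oxLDL libraries stood above the control median, but control library 1 lay among them. The log2 fold change was 0.75 ± 0.20 (SE, edgeR adjusted p = 0.0116), and 0.96 without control library 1 and IS library 4 (adjusted p = 0.000122). In the oxLDL+pNaKtide libraries Tgfbr1 stood at 36.0, 38.1, 30.7, 16.4 and 31.9 CPM, all below every oxLDL library, with library 4 the lowest. That was a log2 fold change of -0.92 ± 0.21 against oxLDL (edgeR adjusted p = 0.000731). With pNaKtide alone the level ran from 25.7 to 49.9 CPM, and in control cells from 26.0 to 52.9 CPM. With IS it was 48.0 ± 11.4 CPM, where IS library 4 was at 28.8 CPM and the others were between 47.1 and 56.9 CPM, and with IS and pNaKtide it was 50.8 ± 4.99 CPM. The change between IS and control was not called (log2 fold change 0.47 ± 0.20, edgeR adjusted p = 0.153), but was without control library 1 (0.68), without IS library 4 (0.62) and without both (0.82, edgeR adjusted p = 0.00105).

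Bmpr1a, a type I receptor for BMPs with a known part in adipocyte commitment, lies on chromosome 14 (ENSMUSG00000021796, 34410734 to 34503341, minus strand). Control libraries 1 to 5 held 86.9, 57.9, 65.9, 55.2 and 57.2 CPM and the oxLDL libraries 101, 113, 86.3, 84.5 and 106 CPM. Only control library 1 reached the oxLDL range. The log2 fold change was 0.61 ± 0.15 (edgeR adjusted p = 0.00866). In the oxLDL+pNaKtide libraries it fell to 60.2, 66.5, 58.5, 35.6 and 52.7 CPM, below all oxLDL libraries, with a log2 fold change of -0.84 ± 0.15 (edgeR adjusted p = 7.38e-05). Levels were 83.9 ± 15.8 CPM with IS and 85.2 ± 9.61 CPM with IS and pNaKtide. The difference between IS and control was not called (0.38 ± 0.15, edgeR adjusted p = 0.126), and was called without control library 1 (0.51), IS library 4 (0.50) or both (0.62, edgeR adjusted p = 0.000438).

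Acvr2a, a type II receptor which binds activins and also BMPs, lies on chromosome 2 (ENSMUSG00000052155, 48814109 to 48903269, plus strand). It was at 42.7, 26.5, 31.8, 24.4 and 23.9 CPM in control libraries 1 to 5 and at 46.0, 48.1, 40.6, 37.6 and 50.7 CPM with oxLDL, where control library 1 again overlapped. Its log2 fold change was 0.58 ± 0.17 (edgeR adjusted p = 0.0137). With oxLDL and pNaKtide it was at 25.0, 29.2, 23.1, 12.9 and 21.3 CPM. This was 0.504 of the oxLDL level by the fitted change, with a log2 fold change of -0.99 ± 0.17 (edgeR adjusted p = 5.14e-05) and groups that did not overlap. Acvr2a was also the gene called in IS against control, with 46.4, 43.8, 44.4, 28.3 and 44.9 CPM in IS libraries 1 to 5. IS library 4 stood with the control libraries. The change was 0.48 ± 0.16 on the log2 scale (edgeR adjusted p = 0.0950), and 0.04 with the GC and length offsets, where it was not called (edgeR adjusted p = 0.821). It was called without control library 1 or without IS library 4 and lost without any other library of these groups, with log2 fold changes between 0.41 and 0.64, and without both libraries it was 0.75 (edgeR adjusted p = 0.000205).

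Bmpr2, the main type II receptor for BMPs, lies on chromosome 1 (ENSMUSG00000067336, 59763400 to 59879014, plus strand) and has the longest transcripts of these genes, with 17983 annotated exonic bases. Control library 1 held 69.4 CPM and the other control libraries 34.9 to 40.5 CPM, and the oxLDL libraries held 51.4 to 73.4 CPM. The log2 fold change was 0.53 ± 0.20 (edgeR adjusted p = 0.0480). This call was lost without control library 2 (0.49), 4 (0.46) or 5 (0.45) or oxLDL library 2 (0.48) or 5 (0.47), and the value rose to 0.75 without control library 1 and IS library 4. With oxLDL and pNaKtide Bmpr2 was between 18.7 and 46.9 CPM, below all oxLDL libraries (log2 fold change -0.84 ± 0.20, edgeR adjusted p = 0.00133).

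Tgfbr2, the receptor that binds TGF-beta first, lies on chromosome 9 (ENSMUSG00000032440, 116084293 to 116175360, minus strand) and was not called with oxLDL. Its level was 123, 129, 133, 127 and 124 CPM in control libraries 1 to 5 and 124, 117, 106, 128 and 117 CPM with oxLDL, and the groups overlapped. The log2 fold change was -0.10 (95% interval -0.24 to 0.04, edgeR adjusted p = 0.291), and 0.03 when libraries were scaled by their size alone. With oxLDL and pNaKtide it was at 108, 113, 99.0, 102 and 111 CPM. This was lower than with oxLDL (log2 fold change -0.15 ± 0.07, edgeR adjusted p = 0.0894) and lower than in control cells (-0.25 ± 0.07, edgeR adjusted p = 0.0438), whose libraries it did not overlap, and 2.20% of all genes were lower in this way. Tgfbr2 was the gene called between oxLDL+pNaKtide and control, where 5.20% of all genes tested were called, 3.16% as lower, and that call was lost without control library 3 or oxLDL+pNaKtide library 4, and with the GC and length offsets (-0.15, edgeR adjusted p = 0.110). The call against oxLDL was lost in 8 of the 10 fits that left out 1 library, and held only without oxLDL library 3 or oxLDL+pNaKtide library 2, with log2 fold changes between -0.19 and -0.11. The ratio of Tgfbr1 to Tgfbr2, looked at after the values were seen, was 34.1% ± 11.6 in control cells, 61.7% ± 10.6 with oxLDL and 35.7% ± 9.09 with oxLDL and pNaKtide on the FPKM scale. With IS it was 50.7% ± 13.8, with IS and pNaKtide 53.2% ± 5.62, and with pNaKtide alone 38.3% ± 9.96. The libraries that stood apart carried much of this spread. Control library 1 was at 53.8% and the other controls at 26.4% to 35.5%, IS library 4 at 28.2% and the other IS libraries at 46.9% to 61.4%, pNaKtide library 3 at 55.6% and the others at 31.0% to 36.7%, and oxLDL+pNaKtide library 4 at 20.1% and the others at 36.0% to 42.1%. The annotated transcripts of Tgfbr1 have 43.5% GC and those of Tgfbr2 51.1%, and the part of the GC trend in this ratio was not tested.

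Among the receptor-regulated Smads, Smad2 on chromosome 18 (ENSMUSG00000024563, 76241580 to 76310963, plus strand), which carries TGF-beta and activin signals, had the narrowest spread with oxLDL. The oxLDL libraries were at 33.0, 34.2, 32.9, 32.6 and 34.2 CPM, and every control library was below them, at 30.9, 27.8, 28.6, 25.7 and 23.6 CPM. The log2 fold change was 0.29 ± 0.10 (edgeR adjusted p = 0.0347), a call lost only without control library 5 (0.24, edgeR adjusted p = 0.108) among the 10 fits that left out 1 library. With oxLDL and pNaKtide Smad2 was at 17.7 to 27.8 CPM, all below the oxLDL libraries (log2 fold change -0.43 ± 0.10, edgeR adjusted p = 0.00122). Smad5 on chromosome 13 (ENSMUSG00000021540, 56703010 to 56742377, plus strand), which carries BMP signals, was at 44.7 ± 11.2 CPM in control cells, 54.6 ± 4.02 CPM with oxLDL and 38.1 ± 6.61 CPM with oxLDL and pNaKtide. Control library 1 held 63.6 CPM, more than any oxLDL library. The rise with oxLDL was called (0.29 ± 0.13, edgeR adjusted p = 0.0887) and lost in 8 of the 10 fits that left out 1 library. It held without control library 1, at 0.45, and without oxLDL library 4. The fall with pNaKtide was -0.51 ± 0.13 (edgeR adjusted p = 0.00170) and was called in all 10 such fits. Smad3 on chromosome 9 (ENSMUSG00000032402, 63646767 to 63757994, minus strand), the Smad of TGF-beta signals that restrains adipocyte differentiation, was at 42.8 ± 2.84 CPM in control cells, 39.3 ± 3.48 CPM with oxLDL and 38.4 ± 5.24 CPM with oxLDL and pNaKtide. Its log2 fold change was -0.12 with oxLDL against control (95% interval -0.32 to 0.08, edgeR adjusted p = 0.395), or 0.0085 when scaled by library size alone. Against oxLDL it was -0.04 with pNaKtide added (95% interval -0.24 to 0.17), and 0.06 without oxLDL+pNaKtide library 3.

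Smad4 on chromosome 18 (ENSMUSG00000024515, 73639009 to 73703780, minus strand), the partner of all receptor-regulated Smads, was at 30.3 ± 2.06 CPM in control cells and 32.8 ± 1.76 CPM with oxLDL, a difference that was not called (0.12 ± 0.08, edgeR adjusted p = 0.285). With oxLDL and pNaKtide it was at 30.2, 29.7, 24.0, 23.7 and 30.2 CPM. Each of these was below the lowest oxLDL library, at 30.3 CPM, if by little, and the log2 fold change was -0.25 ± 0.08 (edgeR adjusted p = 0.0115). Smad7 on chromosome 18 (ENSMUSG00000025880, 75367529 to 75395935, plus strand) held 19, 13, 16, 10 and 11 counts in control libraries 1 to 5, 27, 23, 9, 28 and 28 counts with oxLDL, and 9, 10, 8, 3 and 4 counts with oxLDL and pNaKtide. In CPM the last group, at 0.403 to 1.06, lay below the oxLDL group, at 1.11 to 2.26. The log2 fold change between them was -1.27 ± 0.30 (edgeR adjusted p = 0.000943), the largest of the 10 genes in this comparison, and from -1.42 to -1.09 with 1 library left out. Between oxLDL and control it was 0.55 ± 0.26 and was not called (edgeR adjusted p = 0.114), but it was without control library 1 (0.65) or oxLDL library 3 (0.65), and without control library 1 and IS library 4 (0.65, edgeR adjusted p = 0.0262). With pNaKtide alone Smad7 held 7, 3, 9, 9 and 9 counts, with a log2 fold change of -0.64 ± 0.31 against control that was not called (edgeR adjusted p = 0.815).

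**Figure D2:**
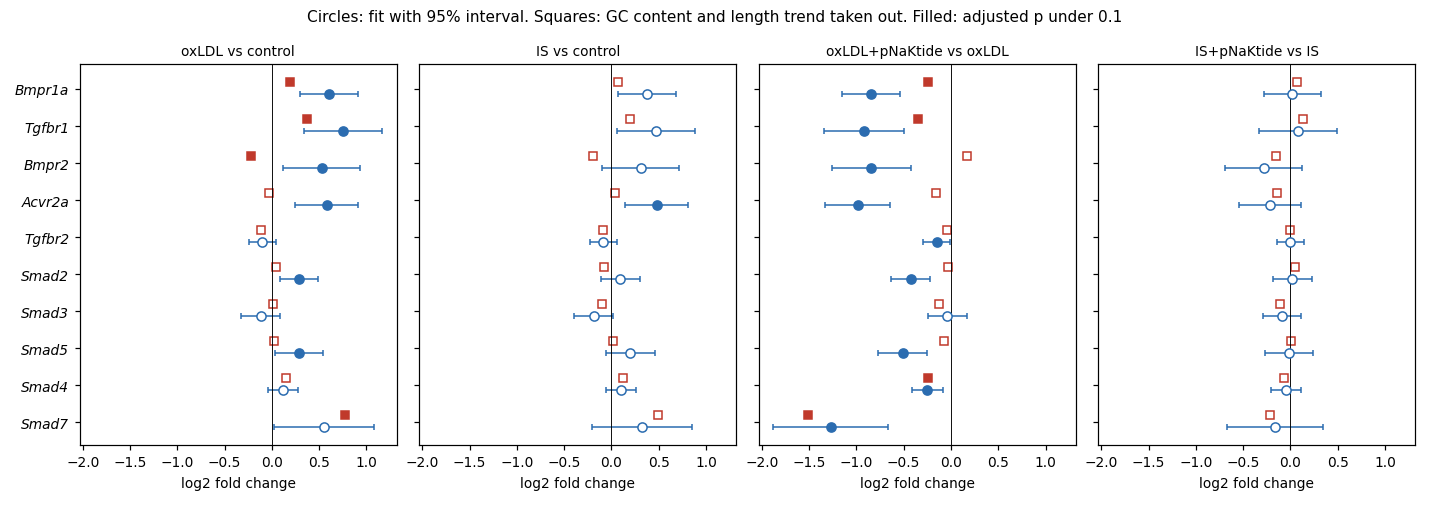
Log2 fold change (x axis) of each of the 10 genes (y axis) in 4 comparisons of groups of 5 libraries, as fitted on the counts (circles, with 95% interval) and after removal of the trends over GC content and transcript length (squares), filled where the adjusted p was under 0.1. The circles of Bmpr1a, Tgfbr1, Bmpr2 and Acvr2a lie between 0.53 and 0.75 in oxLDL against control and between -0.99 and -0.84 in oxLDL+pNaKtide against oxLDL, while the squares of Bmpr2 lie on the other side of 0.

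The difference between the change with pNaKtide in oxLDL-treated cells and that in untreated cells was tested directly. It was called for 4 of the 10 genes, all receptors, and 24.6% of all genes tested were called, 11.8% with a lower value. The difference was -0.94 ± 0.29 on the log2 scale for Tgfbr1 (edgeR adjusted p = 0.0365), -0.75 ± 0.21 for Bmpr1a (0.0288), -0.72 ± 0.29 for Bmpr2 (0.0827) and -0.71 ± 0.24 for Acvr2a (0.0456). The number called was 7 without control library 1, 6 without oxLDL+pNaKtide library 2, 2 without oxLDL+pNaKtide library 4 and 1 without pNaKtide library 3, and between 3 and 5 without any other library, while the calls over all genes ran from 2116 to 7515. Without control library 1 and IS library 4 it was 7, with Smad2, Smad4 and Smad5 added, and 40.3% of all genes were called. Without all 4 libraries that stood apart it was 6, and 30% of all genes were called. Set against the change with pNaKtide in IS-treated cells, a comparison added after the values were seen, the change in oxLDL-treated cells was lower for Bmpr1a, Acvr2a, Tgfbr1, Smad2, Smad5 and Smad7, and 29.3% of all genes tested were called, 13.9% with a higher and 15.4% with a lower value. These differences were -0.86 ± 0.21 for Bmpr1a, -0.77 ± 0.23 for Acvr2a, -0.995 ± 0.29 for Tgfbr1, -0.45 ± 0.14 for Smad2, -0.49 ± 0.18 for Smad5 and -1.11 ± 0.39 for Smad7 on the log2 scale, with edgeR adjusted p-values from 0.0109 to 0.0486. Without the 4 libraries that stood apart 4 of these were called, all but Smad2 (-0.27) and Smad7 (-0.83), beside 20.1% of all genes.

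In IS-treated cells the addition of pNaKtide gave no call among the 10 genes. No gene was called over the whole table by edgeR (0%), while 564 of all genes and 0 of the 10 had an unadjusted p under 0.05, and DESeq2 called 14 genes of the table and 0 of the 10. For Bmpr1a the log2 fold change was 0.02 (95% interval -0.28 to 0.32), for Tgfbr1 0.08 (-0.33 to 0.49) and for Smad5 -0.02 (-0.27 to 0.24). For Bmpr2 it was -0.28 (-0.69 to 0.12) and for Acvr2a -0.22 (-0.55 to 0.11). In each of these 4 receptors the lower end of the interval lay above the change that pNaKtide gave in oxLDL-treated cells, but for Bmpr2 the tested difference between the changes was not called (-0.56 ± 0.28, edgeR adjusted p = 0.160). The 5 libraries with IS and pNaKtide stood close together in Acvr2a, from 33.8 to 39.0 CPM, all within the range of the IS libraries, since IS library 4 was low. The change with pNaKtide in IS-treated cells, set against that in untreated cells, was called for none of the 10 genes and for 0 of all genes by edgeR and by DESeq2, where 619 of all genes and 0 of the 10 had an unadjusted p under 0.05. Between IS+pNaKtide and control no gene of the 10 was called, with 0.358% of all genes called, but 5 were without control library 1, where 26.9% of all genes were called, and 5 without it and IS library 4, where 32.7% were. Those called in the latter were Bmpr1a (0.53), Tgfbr1 (0.76), Acvr2a (0.43) and Smad5 (0.34), which were higher, and Smad3 (-0.27), which was lower. Smad3 stood at 35.3 ± 1.55 CPM with IS and pNaKtide, below every control library, as were 1.64% of all genes, with a log2 fold change of -0.28 ± 0.10 that was not called (edgeR adjusted p = 0.177), but was without control library 1 and IS library 4 (edgeR adjusted p = 0.0565) and with the replicate block (edgeR adjusted p = 0.0855). Between oxLDL and IS none of the 10 was called, and 0.0149% of all genes were. By edgeR 1047 of all genes and 0 of the 10 had an unadjusted p under 0.05 there, and DESeq2 called 41 of all genes. Every oxLDL library lay above every IS library in Smad2, as was so for 0.755% of all genes.

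The order of the groups was nearly shared by 7 of the genes. Bmpr1a, Bmpr2, Acvr2a, Tgfbr1, Smad2, Smad5 and Smad7 had their highest mean with oxLDL and their lowest with oxLDL and pNaKtide, and the means of both IS groups stood above control in each of them. Neighbouring groups in this order overlapped in every gene, with the exception of Smad2, whose oxLDL libraries (32.6 to 34.2 CPM) lay above those with IS and pNaKtide (28.6 to 30.6 CPM). Smad4 had the same top and bottom within a narrower span, from 32.8 ± 1.76 to 27.5 ± 3.40 CPM. Tgfbr2 and Smad3 were highest in control cells, and Tgfbr2 was lowest with oxLDL and pNaKtide and Smad3 with IS and pNaKtide.

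The genes that rose with oxLDL and those that did not were separated by the base composition of their transcripts. The 6 genes called higher had annotated transcripts of 39.6% to 46.5% GC, and the 4 that were not called had 50.6% to 58.6%. The same held over all genes whose log2 CPM averaged 1 or more. With oxLDL, 86.8% of the 410 genes under 40% GC were called higher, 67.8% of those from 40% to 45%, 25.5% from 45% to 50%, 5.05% from 50% to 55% and 1.33% above 55%. With oxLDL and pNaKtide against oxLDL the trend ran the other way, with 87.8% of the genes under 40% GC called lower and 4.89% of those above 55%. Smad7, at 58.6% GC, was below this level of expression. Its log2 fold changes of 0.55 and -1.27 had the sign opposite to the medians of genes above 55% GC, which were -0.31 and 0.35.

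**Figure D3:**
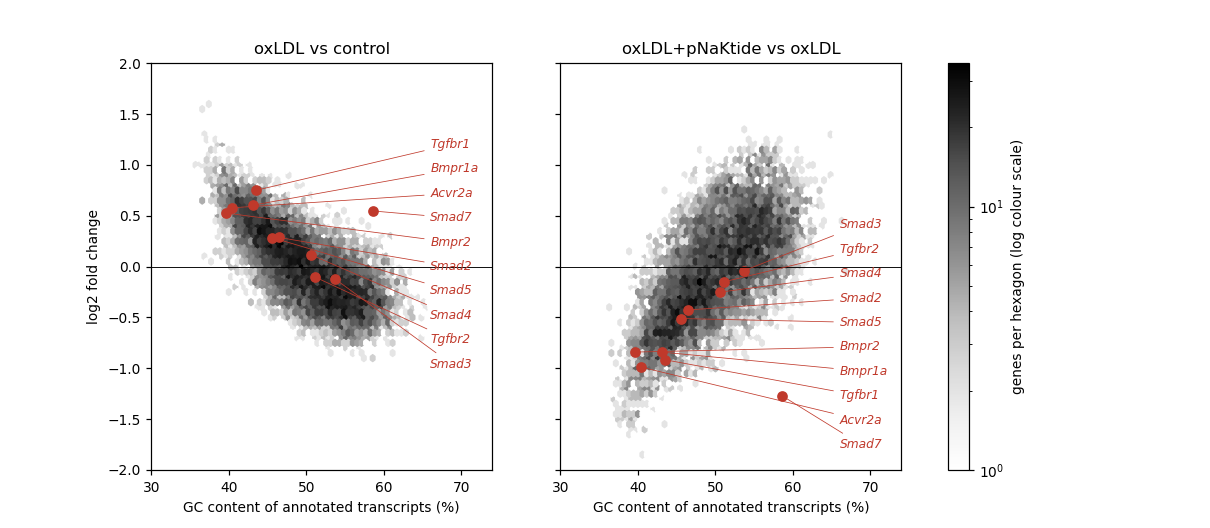
Log2 fold change (y axis) against the GC content of the annotated transcripts in percent (x axis) for oxLDL against control (left) and oxLDL+pNaKtide against oxLDL (right). Genes whose log2 CPM averaged 1 or more are hexagons shaded by their number on a log scale, and the 10 genes are red points. Bmpr1a, Tgfbr1, Bmpr2, Acvr2a, Smad2, Smad5, Smad4, Tgfbr2 and Smad3 lie within the cloud that slopes with GC content, and Smad7 lies off it in both panels.

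When the trends of single libraries over GC content and transcript length were removed by offsets in the same edgeR fit, most changes of the receptors and Smads shrank, while those of Smad7 grew. The trends were fitted on genes whose log2 CPM averaged 1 or more. Smad7 lay below this level, so its offsets were taken from the trend of other genes. Its changes ran against that trend, and such offsets enlarge changes of this kind. Whether the trend applies to Smad7 was not tested. In oxLDL against control Tgfbr1 kept a log2 fold change of 0.37 ± 0.10 (adjusted p = 0.0254) and Bmpr1a one of 0.19 ± 0.06 (adjusted p = 0.0436). Smad7 reached 0.77 ± 0.27 and was then called (adjusted p = 0.0582). Acvr2a was at -0.03, Smad2 at 0.04 and Smad5 at 0.02, and none of them was called. Bmpr2 turned to -0.22 ± 0.08 and was called lower (adjusted p = 0.0711). In oxLDL+pNaKtide against oxLDL 4 of the genes stayed lower under the offsets, and these were Smad7 (-1.52 ± 0.31, adjusted p = 0.000319), Tgfbr1 (-0.35 ± 0.11, adjusted p = 0.0119), Bmpr1a (-0.25 ± 0.06, adjusted p = 0.00254) and Smad4 (-0.24 ± 0.08, adjusted p = 0.0161). Acvr2a was at -0.16 (adjusted p = 0.129) and Bmpr2 at 0.16 (adjusted p = 0.137), and Smad2, Smad5 and Tgfbr2 lay between -0.08 and -0.03. For Tgfbr1 the difference in the change with pNaKtide between oxLDL-treated and untreated cells was -0.45 ± 0.15 with the offsets and was still called (adjusted p = 0.0690), and for Bmpr1a it was -0.23 ± 0.09 and was not (adjusted p = 0.109). Over all genes 3801 were called with the offsets in oxLDL against control, where 7259 were without them and 2615 were called both ways in the same direction. In oxLDL+pNaKtide against oxLDL these counts were 7290, 9722 and 5100. The GC trend moved with the groups, and its origin was not tested.

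Library by library, the level followed the slope in most of the genes. Over the 30 libraries the correlation of log2 CPM with the slope was -0.98 for Bmpr1a, -0.96 for Tgfbr1, -0.95 for Acvr2a, -0.94 for Smad5, -0.87 for Smad2, -0.85 for Bmpr2, -0.79 for Smad7 and -0.66 for Smad4. It was -0.15 for Tgfbr2 and 0.23 for Smad3. These are descriptions, since the libraries share groups and the slope was estimated from the same counts. Control library 1, with a slope of -0.212, stood with the oxLDL libraries in Tgfbr1, and IS library 4, with a slope of 0.290, stood with the control libraries.

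**Figure D4:**
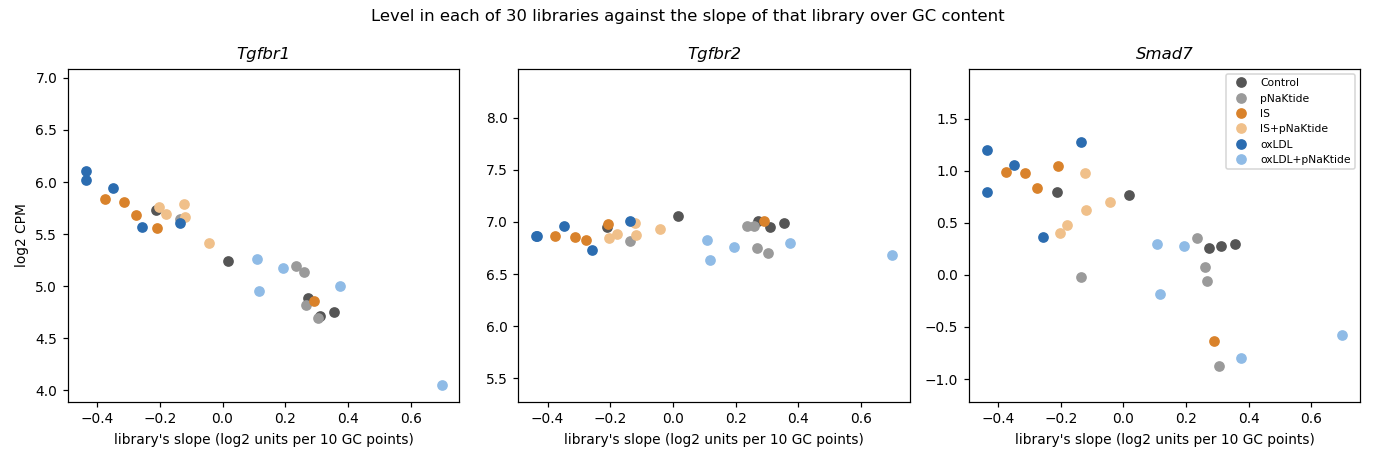
Log2 CPM (y axis) of Tgfbr1, Tgfbr2 and Smad7 in each of the 30 libraries against the slope of the library's log2 CPM over GC content, in log2 units per 10 GC points (x axis), coloured by group. Tgfbr1 falls along the slope with a correlation of -0.96, Tgfbr2 stays level at -0.15, and Smad7 falls with more scatter at -0.79.

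The genes also moved with one another across libraries, and the GC trend bore on this. Tgfbr1 and Bmpr1a had a correlation of 0.98 over the 30 libraries, and of 0.86 with the trend taken out of both. Bmpr1a with Smad4 gave 0.72 before and 0.72 after, and Bmpr1a with Smad7 gave 0.80 and 0.73. Acvr2a with Smad5 fell from 0.95 to 0.36, and Bmpr1a with Bmpr2 turned from 0.88 to -0.49. Tgfbr2 was closest to Smad3, at 0.61, and at 0.17 with the trend taken out. Outside the 10 genes and among 12580 genes, the transcripts most like Tgfbr1 over the 30 libraries were Cdc27 (0.98), Dmtf1 (0.98) and Trpm7 (0.98), and those most like Bmpr1a were Arhgap5, March7 and Cdc27, each at 0.98 or 0.99. Their GC content ran from 34.8% to 42.6%. Acvr2a was most like Zfr (0.98), Adam10 (0.98) and Twsg1 (0.97), Bmpr2 was close to Mga and Med13 (0.98 each), and Smad5 was most like Ddx6 (0.98), Marf1 (0.96) and Ccdc50 (0.96). For Smad2 these were C1galt1, Tpp2 and Kpna3 (0.91 to 0.92), and for Smad4 Zmynd11, Ncoa2 and Atp7a (0.89 to 0.90). Tgfbr2 was most like Mbtps1 (0.86), Col5a2 (0.85) and Tnfrsf1b (0.82), and Smad7 most like Zfp9 (0.90), Lman1 (0.88) and Zc3hav1 (0.88).

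The rest of the pathway was described from lists of 92 further genes, of which 80 were tested. Of the 80, 22 were called higher and 11 lower with oxLDL, beside 18.1% and 18.0% of all genes, and 9 higher and 31 lower when pNaKtide was added to oxLDL, beside 22.1% and 26.1% of all genes. Of 10 ligands tested, 1 rose and 1 fell with oxLDL, and with the GC and length offsets as many, of which only Tgfb1 was called both ways. In the ligands 2 rose and 2 fell with pNaKtide added (1 and 2 with the offsets). Tgfb1, the main TGF-beta, fell from 72.1 ± 16.9 to 42.5 ± 4.77 CPM (log2 fold change -0.76 ± 0.19, edgeR adjusted p = 0.00945), and was at 87.9 ± 16.9 CPM with oxLDL and pNaKtide, higher than with oxLDL by 1.04 ± 0.19 on the log2 scale (edgeR adjusted p = 0.000116). Both calls of Tgfb1 held with the GC and length offsets, at -0.55 and 0.85. Gdf11 was lower with oxLDL and pNaKtide than with oxLDL (-0.36 ± 0.12, edgeR adjusted p = 0.0146). Of 8 other receptors and coreceptors 1 rose and 1 fell with oxLDL, namely Rgmb (0.36 ± 0.14) and Rgma (-0.38 ± 0.10), which are both BMP coreceptors. With the offsets 2 rose and 0 fell, and Rgma was at -0.16 and not called (adjusted p = 0.107). With pNaKtide added 1 rose and 3 fell, or 1 and 5 with the offsets, among them Acvr1, another type I receptor, at -0.41 ± 0.09. Rgma, the one that rose, was at 0.45 ± 0.10, and at 0.22 with the offsets. Of 3 other Smads, Smad1, the close relative of Smad5, rose with oxLDL (0.29 ± 0.12, edgeR adjusted p = 0.0750), and from 10.7 ± 0.701 CPM it fell to 5.85 ± 1.31 CPM with pNaKtide (-0.85 ± 0.13, edgeR adjusted p = 1.75e-05). Smad1 has 51.6% GC, and with the offsets these values were 0.32 and -0.80, both called. Smad9 and Smad6 were named after their values were seen. Smad9, which also carries BMP signals, was lower with pNaKtide added (-0.76 ± 0.32, edgeR adjusted p = 0.0653) at levels under 1 CPM, and with the offsets was not called (-0.53, adjusted p = 0.258). Smad6, an inhibitory Smad, was called in neither comparison.

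Of 17 extracellular inhibitors and matrix carriers tested, 5 rose and 3 fell with oxLDL, and 2 rose and 7 fell when pNaKtide was added. With the offsets these counts were 3 and 3, and 3 and 7. Bmper, which binds BMPs outside the cell, rose by 0.37 ± 0.09 with oxLDL, and Ltbp4, which holds latent TGF-beta in the matrix, changed by -0.68 ± 0.15. Fst, the activin-binding follistatin, stood at 30.9 ± 1.75 CPM with oxLDL and 16.7 ± 3.55 CPM with pNaKtide added (-0.88 ± 0.12, edgeR adjusted p = 8.55e-06), while Ltbp3 was higher with pNaKtide added (0.55 ± 0.13). Of 14 Smad anchors, ligases and phosphatases, 6 rose and 2 fell with oxLDL, with the smallest adjusted p in Usp15 (0.50 ± 0.13), a deubiquitinase of the pathway, and Smurf1 (-0.26 ± 0.08), a ubiquitin ligase. With the offsets 0 rose and 4 fell, and neither Usp15 (-0.11, adjusted p = 0.465) nor Smurf1 (-0.10, adjusted p = 0.293) was called. When pNaKtide was added 2 rose and 8 fell, and with the offsets 6 rose and 2 fell. Rnf111, a ligase that acts on inhibitors of the pathway, was at -0.93 ± 0.17 (-0.47 with the offsets) and Fkbp1a, which binds type I receptors, at 0.54 ± 0.11. Of 13 nuclear partners 6 rose and 1 fell with oxLDL, and 0 rose and 8 fell with pNaKtide added. With the offsets these counts were 2 and 0, and 1 and 6. Rbl1 was at 0.67 ± 0.18 and E2f4 at -0.16 ± 0.07 in the first comparison, and Zeb2, a repressor that binds Smads, at -0.93 ± 0.18 in the second. With the offsets Rbl1 was at 0.30 (adjusted p = 0.124) and E2f4 at 0.08 (adjusted p = 0.401), neither of them called, and Zeb2 was at -0.47 and still called.

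Of 15 tested genes that respond to the pathway, 2 rose and 3 fell with oxLDL. Their median log2 fold change, without the offsets, was -0.17 against 0.04 over all genes. Atoh8, a BMP-induced gene, fell from 5.32 ± 0.799 to 3.38 ± 0.414 CPM (-0.64 ± 0.16, edgeR adjusted p = 0.00932), and its value was -0.35 with the offsets (adjusted p = 0.0803). With the offsets 2 rose and 3 fell, of which 2 of those that fell, Atoh8 among them, were called both ways and the other 3 were not. With pNaKtide added 2 rose and 1 fell, or 1 and 5 with the offsets. Id1, a classical BMP target, was called higher (0.23 ± 0.10, edgeR adjusted p = 0.0512), and with the offsets was called lower (-0.26, adjusted p = 0.0177). In IS against control, 3 of the 80 tested genes were called higher and 7 lower over the 7 lists, beside 4.45% and 3.49% of all genes, shares that were 23.9% and 21.8% without control library 1 and IS library 4. In pNaKtide against control and in IS+pNaKtide against IS none was called by edgeR.

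**Figure D5:**
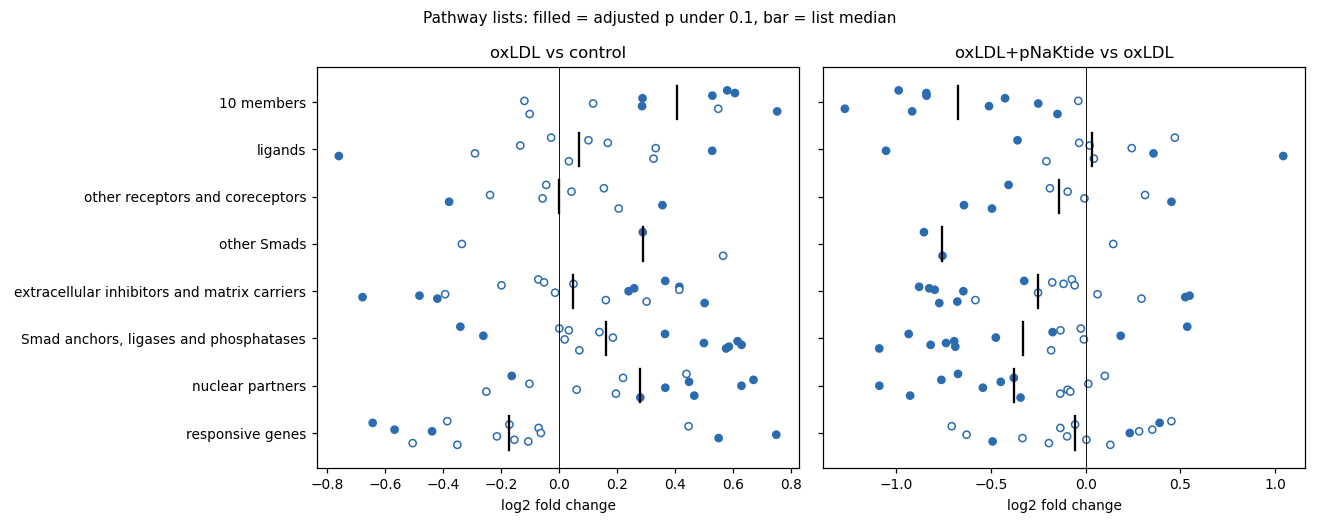
Log2 fold change (x axis) of the 10 genes and of the tested genes of 7 lists of the pathway (y axis) in oxLDL against control (left) and oxLDL+pNaKtide against oxLDL (right), with 1 point per gene, filled where the adjusted p was under 0.1, and a bar at each list's median. The median of the 10 genes is 0.41 on the left and -0.68 on the right, and that of the responsive genes is -0.17 and -0.06. These are without the GC and length offsets, under which the medians of the 10 genes were 0.03 and -0.15. With the offsets 2 responsive genes were called higher and 3 lower on the left, and 1 higher and 5 lower on the right. Their medians with the offsets are not given here.

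These were bulk RNA libraries, in which fewer cells of a type and less RNA per cell cannot be told apart. Adipocyte markers summed to between 14339 and 19069 CPM with oxLDL and between 18665 and 22077 CPM with oxLDL and pNaKtide, and those of preadipocytes and fibroblasts to between 3115 and 3609 CPM and between 3406 and 5616 CPM. In control cells these sums were 15307 to 19893 CPM and 3485 to 5315 CPM. With IS they were 12980 to 16802 CPM and 2466 to 4552 CPM, with IS and pNaKtide 14452 to 16872 CPM and 2606 to 3433 CPM. With pNaKtide alone they were 17526 to 22061 CPM and 3120 to 4840 CPM. The preadipocyte and fibroblast sums with IS and pNaKtide lay below every control library, as Smad3 did. The adipocyte sums of the oxLDL libraries and of those with pNaKtide added overlapped only between 18665 and 19069 CPM. The part of the marker sums in the changes of the receptors and Smads was not tested.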

How the data were processed

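RNA-seq libraries of 3T3-L1 cells (30, in 6 groups of 5 by their labels) were analysed. The authors trimmed paired-end reads with Trimmomatic 0.38 (stranded libraries), aligned them to GRCm38 with HISAT2 2.1.0 and made the deposited counts per gene with GenomicAlignments, without normalization or pooling. The deposited FPKM values are these counts scaled for depth and length by the authors. The authors' normalized counts were not used. The strand setting of the counting is not given in the sources used here, so that reads of a gene and of an overlapping antisense gene may not be told apart. The text on RNA extraction names adipose tissue, and source and cell line name 3T3 cells.

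Of 54232 Ensembl IDs, 54165 matched GENCODE M21 (GRCm38), which gave coordinates, exonic lengths and GC content. The GC content of a gene was taken over all its annotated transcripts together. Promoter sequences are from RefSeq (GRCm38.p6). Genes with more than 14 counts in total went into edgeR 4.0.16 with TMM factors and 1 coefficient per group (robust quasi-likelihood, two-sided, BH-adjusted over all 20139 genes per comparison, threshold 0.1) in R 4.3.3. Log2 CPM used a prior count of 2. Figures were drawn in Python 3.11.15 with matplotlib 3.10.9. Alternatives were DESeq2 1.42.0, RLE or library-size scaling, 11567 genes over 14 counts in each library, 14522 kept by filterByExpr or 29409 with at least 1 count, an adjusted p of 0.05, and a replicate block. Others were offsets for GC content and length per library (mgcv 1.9.3, 20107 genes tested, also with the block), limma 3.58.1 on log2(FPKM + 1) or log2(FPKM + 0.1) (13639 genes averaging 0.5 FPKM or more), fits on only the groups compared, and fits without each library in turn. The trends behind the offsets were fitted on genes whose log2 CPM averaged 1 or more and then applied to all genes tested. Leaving out control library 1 and IS library 4, or these with oxLDL+pNaKtide library 4 and pNaKtide library 3, and the contrast of the pNaKtide changes with oxLDL and with IS, were added after seeing the data.

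The genes, lists, tests and named-gene rule were chosen with earlier results of these data known. Named are the 10 genes, for each list and direction the gene with the smallest adjusted p among called genes averaging a log2 CPM of 1 or more, and the 3 genes most like each of the 10. Of the genes this rule names, 2 are not reported here. No 2 libraries of a group were duplicates (lowest chi-square per degree of freedom 1.28 over 60 pairs). The steps were tested on simulated data.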

Additional observations from a re-analysis of the deposited data

Results flagged for a closer look

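Of 60 sets of 5 libraries, 1 for each of the 10 genes and 6 groups, 9 held a library whose gap to the next was above Dixon's critical value of 0.71, where chance gives about 1 in 20. In IS library 4 this was so for 5 genes, with Bmpr1a at 56.0 CPM (87.8 in the next library), Acvr2a at 28.3 CPM (43.8), Smad2 at 22.8 CPM (30.05), Smad5 at 38.6 CPM (52.3) and Smad7 at 0.470 CPM (1.61). Control library 1 was high in Bmpr2, at 69.4 CPM. IS+pNaKtide library 2 was low in Bmpr2, at 33.3 CPM, and IS+pNaKtide library 1 was high in Smad3, at 37.9 CPM. In oxLDL+pNaKtide library 3, Smad3 was low at 29.2 CPM.

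The change with pNaKtide differed between oxLDL-treated and untreated cells, by a test of the difference itself, in Bmpr1a (-0.75 on the log2 scale), Bmpr2 (-0.72), Acvr2a (-0.71) and Tgfbr1 (-0.94). It differed between oxLDL-treated and IS-treated cells in Bmpr1a (-0.86), Acvr2a (-0.77), Tgfbr1 (-0.995), Smad2 (-0.45), Smad5 (-0.49) and Smad7 (-1.11). With offsets for GC content and length, Tgfbr1 was called in both (-0.45 and -0.48), Bmpr1a (-0.31) and Smad7 (-1.30) in the second, and Bmpr2 in the second with the opposite sign (0.32). The origin of the GC trend was not tested.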

How the results depend on the processing

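With 1 library left out, the number of the 10 genes called ranged from 3 to 7 in oxLDL against control, from 0 to 5 in IS against control and in IS+pNaKtide against control, from 8 to 9 in oxLDL+pNaKtide against oxLDL, from 0 to 1 in oxLDL+pNaKtide against control, from 1 to 7 for the difference in pNaKtide change between oxLDL-treated and untreated cells and from 5 to 7 for that between oxLDL and IS. Smad3 in oxLDL+pNaKtide against oxLDL then ranged from -0.080 to 0.056, and Tgfbr2 in the first difference from -0.034 to 0.034. In IS against control, called for 1 gene beside 1599 of all genes, the count was 2 with DESeq2, with library-size scaling and with more than 14 counts in every library. Over all genes 3160, 2541 and 2424 were called in these fits. The count was 0 with no filter, at an adjusted p of 0.05 and with the compared groups alone, beside 546, 130 and 0 of all genes. Without control library 1 and IS library 4 it was 7 in IS against control, 5 in IS+pNaKtide against control and 7 for the first difference. The shares of all genes were 45.8%, 32.7% and 40.3%. Without all 4 libraries that stood apart the counts were 8, 5 and 6, beside 47.8%, 36.4% and 30% of all genes. IS+pNaKtide against control, with 0 beside 72 of all genes, gave 3 with DESeq2 and 3 with the compared groups alone, beside 1486 and 1295 of all genes. The call of Tgfbr2 in oxLDL+pNaKtide against control was lost (0 called) with no filter and with the compared groups alone. Over all genes 660 and 12 were called in these fits, and 1047 in the main fit.

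Same-numbered libraries did not all deviate together. The correlations of 75 such pairs ran from -0.66 to 0.79 and were over 0.1 in 37 of them. Of 30 libraries, 13 correlated best with a library of their own number. The share that unrelated numbers would give was not computed, so whether same-numbered libraries share an effect was not tested. The main fit did not use the numbers to pair libraries. With the replicate block the count was 6 in oxLDL against control, 9 in oxLDL+pNaKtide against oxLDL, 2 in IS against control, 3 in IS+pNaKtide against control and 5 for the first difference. Over all genes 7807, 9995, 3423, 1338 and 5996 were called with the block, where 7259, 9722, 1599, 72 and 4951 were without it.

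With offsets for GC content and length the count was 4 in oxLDL against control (3 higher, 1 lower), 4 in oxLDL+pNaKtide against oxLDL, 0 in IS against control, 0 in oxLDL+pNaKtide against control, 1 in IS+pNaKtide against control (lower) and 1 for the first difference. Over all genes 3801, 7290, 832, 1959, 431 and 2247 were called in these fits. With the replicate block and these offsets the counts were 4, 5, 0, 0, 2 and 1, beside 4250, 7420, 1289, 2211, 769 and 2735 of all genes. Of the 5 in oxLDL+pNaKtide against oxLDL 4 were lower and 1, Bmpr2, was higher (0.17, edgeR adjusted p = 0.0857). Values that changed sign under the offsets were Bmpr2 (-0.22), Acvr2a (-0.029) and Smad3 (0.0091) in oxLDL against control, Bmpr2 (-0.20) and Smad2 (-0.077) in IS against control, Bmpr2 (0.16) in oxLDL+pNaKtide against oxLDL, Bmpr2 (0.14) and Smad5 (0.036) in the first difference, and Bmpr2 (0.32) and Smad3 (-0.016) in the second. Under the replicate block with offsets the same genes were at -0.22, -0.031, 0.00458, -0.20, -0.076, 0.17, 0.15, 0.029, 0.32 and -0.014. Scaling by library size turned Tgfbr2 (0.028) and Smad3 (0.0085) in oxLDL against control, Tgfbr2 (0.028) in IS against control, Tgfbr2 (-0.19) and Smad3 (-0.065) in the first difference and Smad3 (-0.15) in the second. Tgfbr2 in the first difference was -0.025 with more than 14 counts in every library and -0.00176 with no filter. Apart from the offsets themselves the cause of these changes was not tested. Smad7, which falls under some filters, was not tested in 3 of the alternatives, and its count depth limits its precision most. Over all genes, calls (main count in brackets) ranged over the alternatives from 3801 to 9880 (7259) in oxLDL against control, from 0 to 9485 (1599) in IS against control, from 7290 to 10376 (9722) in oxLDL+pNaKtide against oxLDL, from 12 to 2211 (1047) in oxLDL+pNaKtide against control, from 8 to 7230 (72) in IS+pNaKtide against control, from 2247 to 8054 (4951) for the first difference from 3490 to 6690 (5894) for the second, from 0 to 104 (1) in pNaKtide against control, from 0 to 119 (0) in IS+pNaKtide against IS and from 0 to 41 (3) in oxLDL against IS.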
